A study of Mus musculus with 11 samples.

Results

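*Cx3cl1*, *Cxcl16*, *Cx3cr1* and *Cxcr6* encode the 2 transmembrane chemokines that the metalloprotease ADAM10 can shed and their receptors. These 4 genes were taken by symbol from the 55513 genes of the count table. Heart RNA came from 11 female C57BL/6J mice, 8 weeks old, on day 3 after an operation. Permanent ligation of the left anterior descending coronary artery gave 8 of them a myocardial infarction (MI), and the infarct was excised with its border zone. Of these, 4 mice carried an osmotic minipump with GI254023X, a hydroxamate inhibitor of ADAM10 (A10i, 100 mg/kg), and 4 one with DMSO alone. Sham surgery with DMSO was done in the remaining 3, whose tissue is labelled as healthy, so ligation, wound tissue and the cells that entered it cannot be told apart in a comparison with sham. A sham group with A10i was not analysed here, so any effect of A10i without MI is not separated from its effect after MI.

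CX3CL1 (fractalkine) and CXCL16 are made as proteins with a chemokine domain on a mucin stalk, a membrane anchor and a short cytoplasmic tail. On the cell surface they hold passing leukocytes, and once a sheddase such as ADAM10 or ADAM17 cuts the stalk, the soluble chemokine attracts them. CX3CR1 is carried by monocytes, many resident macrophages and some lymphocytes, and CXCR6 by memory and natural killer-like T cells and other lymphocytes. Counts of RNA give the supply of transcript and contain no information on how much of a protein was cut.

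The names of both ligand classes describe how many residues separate the first pair of cysteines, and the coding sequences of the mouse genes show this spacing. The stretches below run 5′ to 3′ on the coding strand and come from the GENCODE M21 transcripts of GRCm38, the assembly also called mm10. Capitals mark the cysteine codons, which are codons 32 and 36 of *Cx3cl1* and codons 35 and 37 of *Cxcl16*.
*Cx3cl1* (chr8:94778033-94778092, plus strand): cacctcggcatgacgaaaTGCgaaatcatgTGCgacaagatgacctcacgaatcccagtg
*Cxcl16* (chr11:70459094-70459153, minus strand): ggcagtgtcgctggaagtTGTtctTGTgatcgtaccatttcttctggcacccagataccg
Both stretches lie in exon 2 of their transcript, with 3 codons between the cysteines of *Cx3cl1* and 1 codon between those of *Cxcl16*.

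The genes lie apart in the genome, on the coordinates of the deposited table (mm10). *Cx3cl1* (ENSMUSG00000031778) spans 94772009 to 94782427 of chromosome 8 on the plus strand. *Cxcl16* (ENSMUSG00000018920) spans 70453983 to 70459984 of chromosome 11 on the minus strand. Both receptor genes are on chromosome 9, *Cx3cr1* (ENSMUSG00000052336) from 119901616 to 120069879 on the minus strand and *Cxcr6* (ENSMUSG00000048521) from 123806475 to 123811760 on the plus strand. *Cxcr6* lies wholly within the span of *Fyco1*, a gene for an adaptor of autophagosome transport on the other strand, without a shared exonic base. *Cxcl16* shares 552 of its 3021 exonic bases (18.3%) with *Zmynd15* on the opposite strand, and *Zmynd15* had 2.12 to 5.04 CPM, against 7.67 to 29.2 CPM of *Cxcl16*, in counts scaled to a common library size. The strand setting of the counting is not given in the sources used here, so the counts of this shared stretch cannot be assigned with certainty.

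RefSeq start sites with upstream sequence were at hand for 3 of the 4 genes, *Cx3cl1*, *Cx3cr1* and *Cxcr6*. The stretch before the *Cxcr6* start is shown because *Cxcr6* had the largest difference between infarcted and sham hearts of the 4 genes, and because it is the only one of the 3 windows that holds almost no annotated exon of its gene.
*Cxcr6* upstream (GRCm38.p6, chr9:123806227-123806474, plus strand): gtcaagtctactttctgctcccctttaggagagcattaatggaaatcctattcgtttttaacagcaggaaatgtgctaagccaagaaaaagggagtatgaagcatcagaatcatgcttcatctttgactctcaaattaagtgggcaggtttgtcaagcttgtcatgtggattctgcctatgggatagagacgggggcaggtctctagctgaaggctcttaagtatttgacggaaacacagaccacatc
No capitals are shown because none of 6 motifs searched on both strands was found in the 250 bases before the start. These letters were TATAAA, held by 12.4% of 32851 windows of the same length, GGGCGG (32.7%), GAGGAA (23.3%), TTCNNNGAA (7.02%), TGANTCA (6.75%) and the NF-kappaB consensus (5.0%).

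Total counts lay between 21702659 and 29511782 per library, and any pair of libraries of a group differed by more than counting error (chi-square per degree of freedom 3.8 to 55.2). Levels are given in CPM, the count scaled to a common library size with the trimmed mean of M-values (TMM) over all 11 libraries, and differences as log2 fold changes with standard errors from edgeR's quasi-likelihood F-test. A gene was called at a Benjamini-Hochberg adjusted p under 0.01. Without TMM the median log2 difference of all genes moved to 0.21 for DMSO against sham and to 0.18 for A10i against sham, so changes against sham are relative to the typical gene. In whole tissue, fewer cells of a type and less RNA per cell cannot be told apart, and this applies to every difference below. The labels name each mouse but not cage, surgery day or sequencing lane, so p-values measure the spread between these mice.

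**Figure D1:**
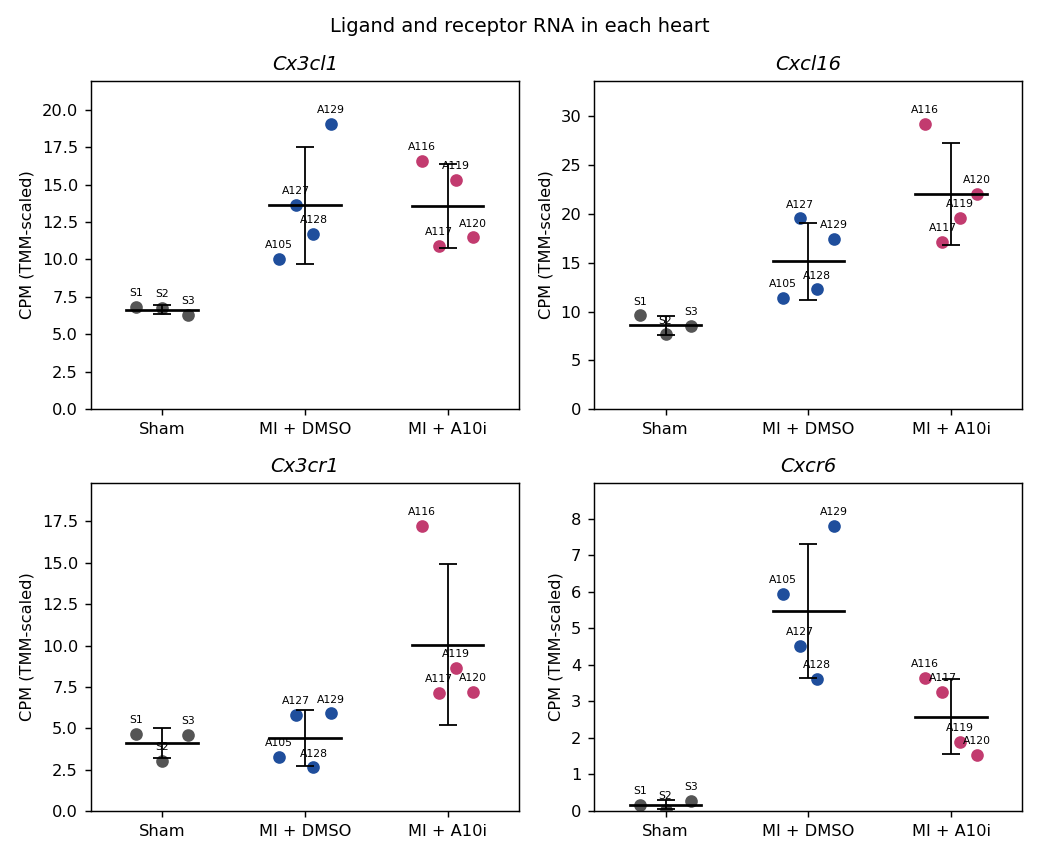
CPM (linear axis) of *Cx3cl1*, *Cxcl16*, *Cx3cr1* and *Cxcr6* in each of 11 hearts, with 3 sham, 4 MI + DMSO and 4 MI + A10i mice named beside their points. Horizontal lines are group means and bars are ± SD. Mouse A116 stands alone at 17.3 CPM of *Cx3cr1*, and the *Cxcr6* points of the A10i mice lie between those of the sham and most DMSO mice.

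*Cx3cl1*, the ligand of CX3CR1, rose after MI in both treatment groups. The sham mice S1, S2 and S3 had 6.84, 6.77 and 6.29 CPM. The DMSO mice A105, A127, A128 and A129 had 10.04, 13.6, 11.7 and 19.1 CPM, and the A10i mice A116, A117, A119 and A120 had 16.6, 10.9, 15.3 and 11.5 CPM. Every infarcted heart exceeded every sham heart, while the A10i range lay inside the DMSO range. The log2 fold change was 1.03 ± 0.21 (SE) for DMSO against sham (edgeR adjusted p = 0.00404) and 1.04 ± 0.16 for A10i against sham (adjusted p = 0.00098). Both comparisons share the 3 sham libraries. Groups that did not overlap and lay above sham were seen for 24.8% of genes with DMSO and 24.9% with A10i, and groups below sham for 23.9% and 23.1%. In DMSO against sham, 12.9% of 17119 genes tested were called higher and 9.6% lower. In A10i against sham, 13.8% of 17004 genes were called higher and 9.09% lower. Between A10i and DMSO the *Cx3cl1* log2 fold change was 0.00 ± 0.21, with a 95% interval from -0.47 to 0.46 (edgeR adjusted p = 1.00). On the linear scale this interval runs from 0.724-fold to 1.38-fold.

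The call for *Cx3cl1* in DMSO hearts rested on all 3 sham libraries being present. Without S1, S2 or S3 the log2 fold changes were 1.05, 1.04 and 0.99 at adjusted p = 0.019, 0.020 and 0.023, and without A127 it was 1.04 at adjusted p = 0.0107. The estimate itself stayed between 0.83 and 1.14 in the 7 fits that left out 1 library.

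*Cxcl16*, the ligand of CXCR6 and also known as a scavenger receptor for oxidized lipoprotein, was highest in the A10i hearts. Sham mice had 9.62, 7.67 and 8.55 CPM. DMSO mice had 11.4, 19.6, 12.3 and 17.4 CPM, and A10i mice had 29.2, 17.1, 19.6 and 22.1 CPM, in the order of mice given for *Cx3cl1*. All infarcted hearts lay above all sham hearts, whereas the A10i and DMSO ranges overlapped at A127, A129 and A117. Against sham, *Cxcl16* rose with A10i (log2 fold change 1.36 ± 0.18, edgeR adjusted p = 0.000733). With DMSO the log2 fold change was 0.82 ± 0.20 at an edgeR adjusted p of 0.01003, just above the threshold of 0.01, while DESeq2, which called 15.2% of genes higher, gave 0.82 at an adjusted p of 0.000674. It passed in edgeR without A105 (0.91, adjusted p = 0.00446) or without A128 (0.91, adjusted p = 0.0067).

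Between A10i and DMSO, *Cxcl16* had a log2 fold change of 0.54 ± 0.21 with a 95% interval from 0.07 to 1.00. The unadjusted p was 0.0274 and the adjusted p 0.291, so the difference was not called. Leaving out 1 library gave 0.38 to 0.68, the lowest without A116. An unadjusted p under 0.05 with a higher value in A10i was found for 7.1% of the 16793 genes tested, and with a lower value for 6.73%.

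*Cx3cr1*, the receptor of CX3CL1, had similar values in sham and DMSO hearts and higher ones in the A10i hearts. Sham mice had 4.64, 3.03 and 4.60 CPM. DMSO mice had 3.25, 5.80, 2.63 and 5.89 CPM, and A10i mice had 17.3, 7.12, 8.63 and 7.20 CPM. The lowest A10i heart exceeded the highest DMSO heart, and A116 had the highest value of all hearts. A group of A10i hearts that did not overlap with DMSO and lay higher was seen for 4.13% of genes tested, and one that lay lower for 4%.

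The *Cx3cr1* log2 fold change between A10i and DMSO was 1.20 ± 0.35, with a 95% interval from 0.40 to 1.99. Its unadjusted p was 0.00748 and its adjusted p 0.190 in edgeR, against 0.0251 in DESeq2, so neither tool called it at 0.01. Without A116 the log2 fold change was 0.81 and the adjusted p 0.223. edgeR called 0 of the 16793 genes in this comparison, with a smallest adjusted p of 0.048, while 1193 genes were higher and 1130 lower at an unadjusted p under 0.05. DESeq2 called 106 genes higher and 125 lower, which is 0.605% and 0.714% of the genes to which it gave an adjusted p.

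Against sham, *Cx3cr1* had a log2 fold change of 0.10 ± 0.31 with DMSO (95% interval -0.59 to 0.79, edgeR adjusted p = 0.811). With A10i it was 1.31 ± 0.35 at an adjusted p of 0.0172, above the threshold, and 0.000249 in DESeq2, which called 14.5% of genes higher. Removing A116 lowered the estimate to 0.91 and also the adjusted p to 0.000996, and without A117 it was 1.45 at 0.0098. The A10i hearts did not overlap with the sham hearts either.

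*Cxcr6*, the receptor of CXCL16, was close to absent in sham hearts and was present in every infarcted heart. Sham mice had 4, 1 and 7 counts (0.173, 0.037 and 0.282 CPM). DMSO mice had 5.95, 4.53, 3.63 and 7.82 CPM, and A10i mice 3.65, 3.25, 1.90 and 1.53 CPM. The A10i group did not overlap with the DMSO group on the scale of their own comparison, but the closest pair, A128 and A116, was nearly equal and changed order on the scale of all 11 libraries. The 12 counts of the 3 sham libraries together have an exact 95% Poisson interval from 6.2 to 21.0.

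Per total count, *Cxcr6* was 38.3-fold (exact interval 21.7 to 74.5) higher in DMSO and 18.6-fold (10.5 to 36.5) higher in A10i than in sham hearts. These intervals cover counting error only. The edgeR log2 fold changes were 5.04 ± 0.48 (adjusted p = 0.000152) and 3.97 ± 0.52 (adjusted p = 0.000599), and both remained called whichever library was left out. Between A10i and DMSO the log2 fold change was -1.07 ± 0.32, with a 95% interval from -1.78 to -0.37. The unadjusted p was 0.00703 and the adjusted p 0.187 in edgeR, against 0.0337 in DESeq2, and leaving out 1 library gave -1.28 to -0.85.

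**Figure D2:**
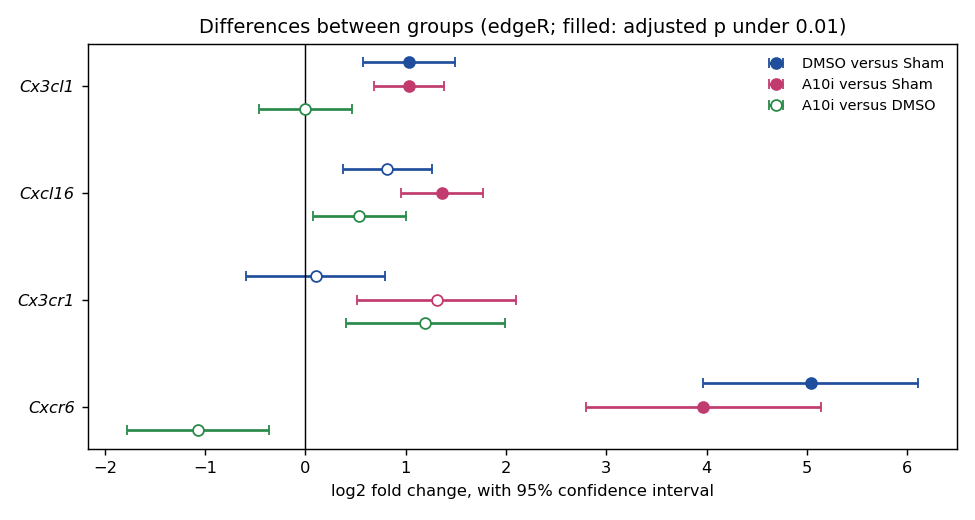
log2 fold changes (x axis) of the 4 genes in 3 comparisons, with 95% confidence intervals as bars. Filled points passed an edgeR adjusted p under 0.01. The intervals of A10i versus DMSO include 0 for *Cx3cl1* only, yet none of the 4 genes was called in that comparison.

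Of the 4 genes, 2 were called higher in DMSO against sham, beside 12.9% of all genes, and 3 in A10i against sham, beside 13.8%. None was called lower, beside 9.6% and 9.09% of all genes. In A10i against DMSO 0 were called, where no gene at all was called by edgeR. The 2 receptors had opposite signs in A10i against DMSO, and the 2 ligands had a log2 fold change near 0 and one of 0.54.

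Levels between genes were compared per kilobase of exon, with the gene length of the deposited table, which covers the annotated exons. That length can differ from the length of the transcripts expressed, so the order between genes depends on the annotation. In sham hearts the order was *Cxcl16* (2.85 ± 0.32 CPM per kilobase, SD, n = 3), *Cx3cl1* (1.69 ± 0.08), *Cx3cr1* (0.907 ± 0.20) and *Cxcr6* (0.085 ± 0.064), and no neighbours overlapped. In DMSO hearts the order was *Cxcl16* (5.02 ± 1.31, n = 4), *Cx3cl1* (3.46 ± 1.00), *Cxcr6* (2.84 ± 0.95) and *Cx3cr1* (0.9751 ± 0.38). There the ranges of *Cxcl16*, *Cx3cl1* and *Cxcr6* overlapped, and *Cx3cr1* lay below all of them. In A10i hearts the order was *Cxcl16* (7.29 ± 1.73), *Cx3cl1* (3.45 ± 0.71), *Cx3cr1* (2.23 ± 1.08) and *Cxcr6* (1.34 ± 0.53), so both receptors changed places. The A10i ranges of neighbours overlapped except for *Cxcl16* against *Cx3cl1*. *Cxcr6* stood above 3.77% of 17499 genes per length in sham hearts and above 46.9% and 31.2% in DMSO and A10i hearts.

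**Figure D3:**
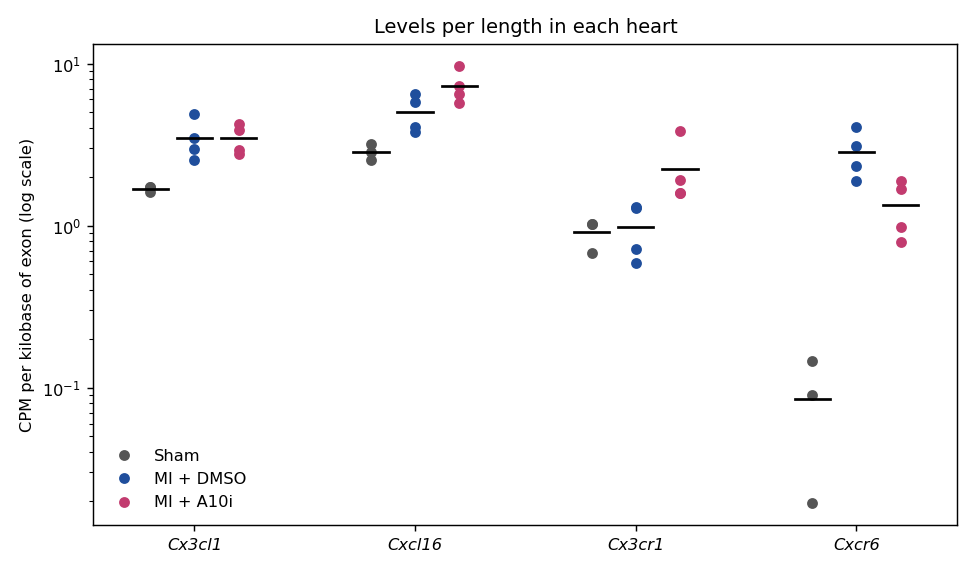
CPM per kilobase of exon (log axis) of the 4 genes in each heart, coloured by group, with group means as lines. *Cxcl16* had the highest mean in each group, and *Cxcr6* spans from 0.019 in one sham heart to 4.05 in one DMSO heart.

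Counts within 1 library can be set against each other without any normalization between libraries, and 6 such ratios were compared between A10i and DMSO with exact two-sided permutation tests. With 4 mice per group the smallest p these tests can give is 0.0286, and 3 of the 6 ratios reached it, which gave an adjusted p of 0.0571 over the 6. No ratio was called at 0.05 after adjustment, and with 3 of 6 at the smallest p none could be, whatever the size of the difference.

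*Cx3cr1* was set against *Csf1r*, the growth factor receptor of macrophages and monocytes. *Cx3cr1* counts were 5.84%, 8.36%, 5.25% and 7.33% of *Csf1r* counts in DMSO hearts and 15.5%, 9.29%, 12.3% and 9.01% in A10i hearts. The sham hearts had 9.26%, 5.88% and 9.16%. The A10i hearts all lay above the DMSO hearts and overlapped with the sham hearts. On the log2 scale the difference was 0.77 (exact permutation p = 0.0286, adjusted p = 0.0571), and with *Adgre1* in place of *Csf1r* it was 0.80.

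*Cxcl16* against *Csf1r* showed little separation, with 20.5% to 28.1% in DMSO and 22.3% to 28.0% in A10i hearts. The log2 difference was 0.14 (exact permutation p = 0.286, adjusted p = 0.343). *Cx3cl1* against *Cdh5*, the cadherin of endothelial junctions, was 5.29% to 8.07% in DMSO and 5.40% to 6.97% in A10i hearts, with a log2 difference of -0.07 (exact permutation p = 0.657, adjusted p = 0.657). In all 3 sham hearts that ratio lay between 2.73% and 2.79%, below every infarcted heart.

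Each receptor was also set against its own ligand. *Cx3cr1* counts per *Cx3cl1* count were 0.325, 0.426, 0.226 and 0.310 in DMSO hearts and 1.04, 0.653, 0.564 and 0.628 in A10i hearts, against 0.678, 0.449 and 0.732 in sham hearts. The A10i hearts lay above all DMSO hearts, with a log2 difference of 1.16 (exact permutation p = 0.0286, adjusted p = 0.0571). *Cxcr6* counts per *Cxcl16* count went the other way, with 0.521, 0.232, 0.296 and 0.449 in DMSO and 0.125, 0.191, 0.098 and 0.070 in A10i hearts. Here all A10i hearts lay below all DMSO hearts, with a log2 difference of -1.65 (exact permutation p = 0.0286, adjusted p = 0.0571), and the sham hearts had 0.007 to 0.035.

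**Figure D4:**
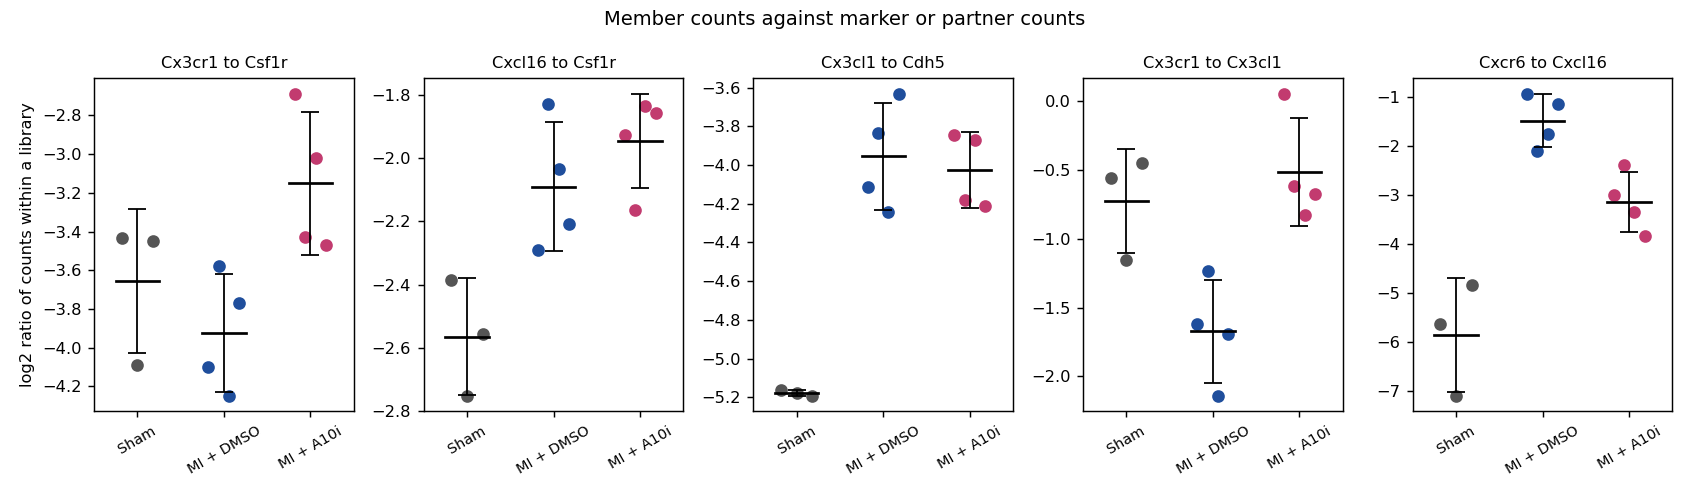
log2 ratios of counts within each library for 5 pairs of genes, with points for hearts, lines for means and bars for ± SD. The y axes differ between panels. In *Cx3cr1* to *Csf1r*, *Cx3cr1* to *Cx3cl1* and *Cxcr6* to *Cxcl16* the DMSO and A10i points do not overlap.

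*Cxcr6* against *Cd3e*, a chain of the T cell receptor complex, could not be read as a level per T cell, because *Cd3e* had only 0 to 6 counts per library. The log2 difference was -1.49 (exact permutation p = 0.2, adjusted p = 0.3), and with *Cd3g* as denominator it was -0.40. Most markers of T and NK cells were near 0. Of 14 listed, 13 stayed under 1 CPM in every sham library and 12 in every DMSO and every A10i library, and *Cd3d*, *Cd3e* and *Cd3g* reached at most 0.24 CPM. Their summed level was 2.06 to 3.94 CPM in sham, 2.20 to 7.07 in DMSO and 3.68 to 8.85 in A10i hearts, while *Cxcr6* alone reached 7.82 CPM in a DMSO heart. *Il7r*, a cytokine receptor of lymphocytes and the 1 marker of this list that was called, rose in DMSO against sham (log2 fold change 3.02, adjusted p = 0.00286) and had -0.06 in A10i against DMSO. It had 1.03 to 4.36 CPM in DMSO and 0.74 to 5.43 CPM in A10i hearts, and *Cd4* had at most 1.39 CPM in any heart.

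Macrophage markers had the sign of *Cx3cr1* and *Cxcl16*. All 10 had positive log2 fold changes in A10i against DMSO, with a median of 0.41 beside 0.00 for all genes. By edgeR and by DESeq2 0 were called, and 6 were higher at an unadjusted p under 0.05, beside 7.1% of all genes. *C1qa* and *C1qc*, chains of complement C1q made by macrophages, did not overlap between the groups, at log2 fold changes of 0.51 and 0.53 (adjusted p = 0.161 and 0.156). Higher values without overlap were seen for 4.13% of all genes. The summed list had 393 to 606 CPM in DMSO and 524 to 843 CPM in A10i hearts, against 294 to 322 in sham hearts. The 6 markers of resident macrophages had 110.1 to 117.2 CPM in DMSO and 120 to 219 CPM in A10i hearts, with 6 of 6 positive and 0 called. Their sham hearts had 124 to 125 CPM, above every DMSO heart and inside the A10i range. *Cd163* is in both lists, so they are not independent. It had a mean of 53.1 CPM in sham, 34.6 CPM in DMSO and 59.3 CPM in A10i hearts. Its log2 fold change was -0.62 for DMSO against sham and 0.16 for A10i against sham, neither called by edgeR. Positive signs in A10i against DMSO were not particular to macrophages. They were found for 7 of 8 fibroblast markers (median 0.49) and 6 of 6 pericyte and smooth muscle markers (0.17). Endothelial markers had 8 of 10 positive (median 0.13) and cardiomyocyte markers 7 of 10 (0.19). The part of macrophage or other markers in the values of *Cx3cr1* and *Cxcl16* was not tested.

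Markers of patrolling monocytes, which carry CX3CR1 at a high level in blood, were set beside *Cx3cr1* itself. *Cx3cr1* had 2.63 to 5.89 CPM in DMSO and 7.12 to 17.3 CPM in A10i hearts. The 5 marker genes summed to 2.83 to 6.40 CPM in DMSO and 3.21 to 4.92 CPM in A10i hearts, against 2.06 to 4.77 in sham hearts. Of the 3 that were tested, *Spn* had a log2 fold change of 0.18 and *Adgre4* and *Treml4* had -0.68 and -0.56, with 0 called, and the difference from *Cx3cr1* was not tested. Markers of inflammatory monocytes had 55.9 to 150 CPM in DMSO and 35.3 to 87.7 CPM in A10i hearts. *Chil3* made up most of this difference, with a mean of 51.3 CPM in DMSO and 12.5 CPM in A10i hearts and a log2 fold change of -2.03. Of the 5 markers, 3 had positive and 2 negative log2 fold changes, with a median of 0.00 and 0.36 for *Ccr2*, and 0 were called.

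Neutrophil markers had the sign of *Cxcr6*. The 8 that were tested had a median log2 fold change of -1.90, and all 8 were lower at an unadjusted p under 0.05, beside 6.73% of all genes. At 0.01 edgeR called 0 of them and DESeq2 called 5 lower, beside 0.714% of genes. The summed list of 10 ran from 86.1 to 171 CPM in DMSO and from 15.6 to 58.3 CPM in A10i hearts, against 1.76 to 3.03 in sham hearts. *S100a9*, an abundant calcium-binding protein of neutrophils, had -1.95 (adjusted p = 0.0707). Whether these markers and *Cxcr6* share a source was not tested.

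Other cell types were measured beside the ligands. Endothelial markers summed to 1012 to 1022 CPM in sham, 817 to 975.1 in DMSO and 968 to 1084 in A10i hearts. Of the 10 endothelial markers, 8 were higher and 2 lower in A10i than in DMSO hearts. Their median on the log2 scale was 0.13, and edgeR called 0. *Kdr*, a receptor of vascular endothelial growth factor, had the largest value of the 10 (log2 fold change 0.56, edgeR adjusted p = 0.0949, DESeq2 0.00204). *Kdr* and *Tie1* were the 2 markers whose groups did not overlap, both higher with A10i, beside 4.13% of all genes. Cardiomyocyte markers summed to 84285 to 87456 CPM in sham, 40899 to 59925 CPM in DMSO and 47496 to 65964 CPM in A10i hearts. With DMSO against sham edgeR called 4 of 10 lower and 0 higher, beside 9.6% and 12.9% of all genes. DESeq2 called 8 of 10 lower, beside 11.5% of genes. Fibroblast markers summed to 1909 to 6399 CPM in DMSO and 4828 to 8924 CPM in A10i hearts, with 0 of 8 called between A10i and DMSO. Dendritic cell markers summed to 18.7 to 22.6 CPM in DMSO and 20.5 to 22.4 in A10i hearts, B cell markers to at most 2.74 CPM in any heart, and pericyte and smooth muscle markers to 705 to 941 CPM in DMSO and 858 to 1088 CPM in A10i hearts, with 0 called by edgeR between A10i and DMSO in each of these lists.

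The enzymes that release the ligands were examined next. *Adam10*, the target of A10i, had 54.6 to 59.3 CPM in sham, 56.9 to 93.2 in DMSO and 67.6 to 91.0 in A10i hearts. Its log2 fold change was 0.30 ± 0.16 for DMSO against sham (edgeR adjusted p = 0.164), 0.39 for A10i against sham (edgeR adjusted p = 0.0141, DESeq2 0.00563) and 0.09 for A10i against DMSO (adjusted p = 0.853). edgeR called *Adam10* in none of the 3 comparisons, and DESeq2 called it higher in A10i against sham, where the groups did not overlap. *Adam17*, the other main sheddase of CX3CL1, was at 41.9 to 53.8 CPM in DMSO hearts and had a log2 fold change of -0.04 against sham. *Adam9* rose after MI, by 0.90 on the log2 scale with DMSO (adjusted p = 0.00075). *Rhbdf2*, an inactive rhomboid that brings ADAM17 to the surface, rose with DMSO (0.41, adjusted p = 0.0065) and in A10i hearts did not overlap with DMSO, at a log2 fold change of -0.40 (adjusted p = 0.117).

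The 6 tetraspanins of the TspanC8 group escort ADAM10 and influence which substrates it cuts, and 5 of them passed the filter on low counts. *Tspan17* rose in DMSO against sham (0.58, adjusted p = 0.0032) and *Tspan15* fell (-0.70, adjusted p = 0.0022). *Tspan15* had 5.61 to 7.07 CPM in DMSO, 8.28 to 10.1 CPM in A10i and 9.79 to 11.1 CPM in sham hearts. The A10i hearts lay above all DMSO hearts and overlapped with sham hearts, with a log2 fold change of 0.53 that edgeR did not call (adjusted p = 0.112) and DESeq2 did (0.00954). The complex of the 7 gamma-secretase genes cuts the stub that shedding leaves in the membrane. In DMSO against sham 1 of them, *Psen2*, was called higher (0.45, edgeR adjusted p = 0.0056) and 0 lower, beside 12.9% and 9.6% of all genes. In A10i against DMSO 0 were called, where edgeR called no gene at all.

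TIMPs inhibit metalloproteases, and *Timp1* and *Timp3* proteins are known inhibitors of ADAM10. *Timp1* had 0.82 to 1.49 CPM in sham, 60.4 to 191 in DMSO and 55.0 to 123 in A10i hearts, with a log2 fold change of 6.63 for DMSO against sham (adjusted p = 7.8e-05) and -0.57 for A10i against DMSO (adjusted p = 0.52). *Timp2* had 105.1 to 133 CPM in DMSO and 163 to 173 CPM in A10i hearts, without overlap, and a log2 fold change of 0.50 at adjusted p = 0.0821 in edgeR and 0.00035 in DESeq2. *Timp4* fell in DMSO hearts (-0.91, adjusted p = 0.0049). Over shedding enzymes, tetraspanins, gamma-secretase and TIMPs together, 22 of 23 genes were tested, 6 were called higher and 2 lower with DMSO against sham, beside 12.9% and 9.6% of all genes. In A10i against DMSO edgeR called 0 and DESeq2 called *Tspan15* and *Timp2*, and groups did not overlap for 2 genes that were higher and 1 that was lower, beside 4.13% and 4% of all genes.

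**Figure D5:**
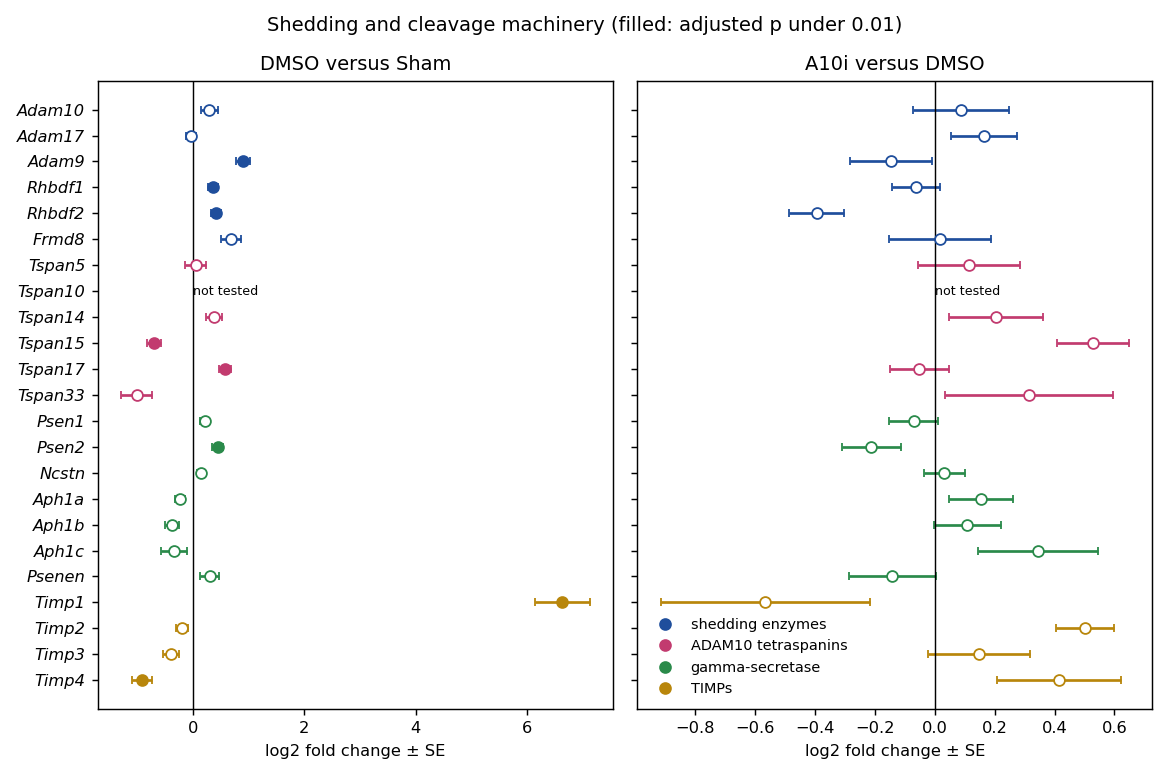
log2 fold changes ± SE (x axes, different scales) of 22 genes for shedding and cleavage, with *Tspan10* marked as not tested, for DMSO versus Sham at left and A10i versus DMSO at right. Filled points passed an edgeR adjusted p under 0.01. No point is filled at right, and *Timp1* at 6.63 is the largest value at left.

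Both receptors couple to inhibitory G proteins. Of 15 genes of their signalling, 7 were called higher with DMSO against sham (12.9% of all genes) and 6 with A10i against sham (13.8% of all genes), 0 were called lower, and 0 were called in A10i against DMSO (median log2 fold change -0.07). *Rac2* and *Pik3r5*, which are expressed in leukocytes, had 2.23 and 2.71 with DMSO against sham (adjusted p = 0.00036 and 0.00027). Of the 4 integrin subunits to which CX3CL1 can bind, *Itgav*, *Itgb3* and *Itgb1* rose with DMSO, by 0.77, 2.41 and 0.56 on the log2 scale, and 0 were called between A10i and DMSO.

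Tumor necrosis factor, interferon gamma and interleukin 1 are known to induce these ligands in cultured vascular cells. *Tnf* had 0.93 to 1.31 CPM in DMSO and 0.35 to 0.95 in A10i hearts, at a log2 fold change of -0.83 (adjusted p = 0.274). *Il1b* had 3.86 to 9.15 CPM in DMSO and 0.89 to 3.89 in A10i hearts, at -1.82 (edgeR adjusted p = 0.14, DESeq2 0.00243). *Ifng* had no count in any DMSO library and a mean of 0.010 CPM in A10i libraries, and was not tested. Among receptors of these cytokines, *Tnfrsf1a*, *Tnfrsf1b* and *Il1r1* rose with DMSO against sham, by 1.14, 1.32 and 1.67 on the log2 scale, and *Ifngr2* fell (-0.46). Over the 9 genes of this list, 6 were called higher and 1 lower of 8 tested with DMSO against sham, beside 12.9% and 9.6% of all genes. Between A10i and DMSO edgeR called 0 of the 7 tested, and it called no gene at all there.

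Of 8 other adhesion genes of the inflamed vessel wall and their leukocyte partners, 7 were called higher in each comparison with sham, beside 12.9% of all genes with DMSO and 13.8% with A10i. In A10i against DMSO, 7 of these 8 had negative log2 fold changes, with a median of -0.54 and 0 called by edgeR. *Sele*, E-selectin, had 3.92 to 7.92 CPM in DMSO and 1.66 to 3.13 in A10i hearts, without overlap (log2 fold change -1.42, edgeR adjusted p = 0.0931, DESeq2 0.000529). *Selp*, P-selectin, had 6.97 to 16.5 and 3.30 to 7.81 CPM (log2 fold change -1.12, adjusted p = 0.181). *Vcam1* had 0.07 (adjusted p = 0.839), and *Itgal*, a chain of the leukocyte integrin LFA-1, -0.99 (adjusted p = 0.173). The difference between *Cx3cl1* and these genes was not tested.

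Of 8 neighbouring genes tested in A10i against DMSO, 4 were higher and 4 lower, and 0 were called, where edgeR called no gene at all. The neighbours of the receptor genes named here, *Fyco1*, *Csrnp1* and *Xirp1*, differed in sign from the receptor in the comparison given for each. *Fyco1*, which encloses *Cxcr6*, had 649 to 711 CPM in sham and 354 to 473 CPM in DMSO hearts and fell after MI (log2 fold change -0.74, adjusted p = 0.0012), whereas *Cxcr6* rose. *Zmynd15*, which overlaps *Cxcl16*, had 0.11 with DMSO against sham (adjusted p = 0.762) and 0.47 with A10i against DMSO (adjusted p = 0.41). With A10i against sham *Zmynd15* had 0.58 (edgeR adjusted p = 0.046), without overlap of the groups. These signs were those of *Cxcl16*, and the part of the shared exonic bases in this was not tested. *Csrnp1* and *Xirp1*, within the long annotated span of *Cx3cr1*, had -0.72 and -1.02 in A10i against DMSO, without overlap and opposite in sign to *Cx3cr1* (edgeR adjusted p = 0.116 and 0.183). DESeq2 called *Csrnp1* (adjusted p = 0.00639).

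The genes most like each member were ranked by Pearson's r of log2 CPM over the 8 infarcted hearts among 14846 genes, as a description without a test, since 8 points drawn from 2 groups give many high values. For *Cx3cl1* the top 5 were *Tcf3* (r = 0.988), *Socs1* (0.984), *Vash1* (0.966), *Dsn1* (0.963) and *Xiap* (0.959). *Socs1*, an inhibitor of cytokine signalling, also had r = 0.981 over all 11 hearts, whereas *Xiap* had 0.151. For *Cxcl16* they were *Ctsd* (0.981) and *Ap1s2* (0.981), followed by *BC002059*, *Lamp1* and *Pcolce2* (each 0.973). *Ctsd* and *Lamp1* encode a protease and a membrane protein of lysosomes. For *Cx3cr1* they were *Hoxb2* (0.991), *Lacc1* (0.99), *Cd248* (0.984), *Ly86* (0.98) and *Cd72* (0.978), and for *Cxcr6* *Impdh2-ps* (0.987), *Gm7278* (0.985), *Tmem214* (0.984), *Ttll3* (0.981) and *Snhg17* (0.977). None of these genes was called between A10i and DMSO.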

How the data were processed

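Poly(A) RNA of 11 mouse hearts was made into strand-specific libraries and sequenced in read pairs. Per the labels and the methods of the study, the authors used bcl2fastq 2.20.0, GSNAP and mm10, and featureCounts 2.0.1 to count reads with a unique alignment per Ensembl gene. The deposited values are raw counts for 55513 genes, without normalization. Symbols came from GENCODE M21 (55154 identifiers named).

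Each comparison used its own libraries, filterByExpr, TMM and the robust quasi-likelihood test of edgeR 4.0.16 in R 4.3.3, two-sided, with a threshold of 0.01 for the adjusted p. The alternatives were DESeq2 1.42.0, RLE scaling, no filter, a joint fit, a threshold of 0.05 and omission of each library. Ratios used counts plus 0.5 and exact permutation tests (scipy 1.17.1). Likeness used log2 CPM with a prior count of 2. The edgeR step was tested on simulated counts.

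The members, lists and tests were chosen with earlier results of these data known. Named are the 4 members, genes of the pathway lists, from each marker list the gene with the highest level per length and the 3 with the smallest p in A10i against DMSO, and the 5 genes most like each member. *Cd3d*, *Cd3e*, *Cd3g*, *Csf1r* and *Adgre1* were named as ratio genes or as defining markers, and *Ccr2*, *Chil3* and *Treml4* fall under the rule. Proteins were not analysed here.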

Additional observations from a re-analysis of the deposited data

Results flagged for a closer look

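Of 20 sets of 4 hearts examined, the gap of 1 heart to the others exceeded Dixon's 95% critical value in 2, and chance gives about 1 in 20. *Cx3cr1* CPM in the A10i group was flagged because A116, at 17.3 CPM, lay far above 7.12, 7.20 and 8.63 CPM, a gap of 0.851 of the range. Without A116 the *Cx3cr1* log2 fold change against DMSO was 0.81. A116 also had the highest *Cxcl16*, *Cx3cl1* and *Cxcr6* levels of the A10i group and the highest *Csf1r* level of all hearts (111 CPM).

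The log2 ratio of *Cxcr6* to *Cd3e* in the A10i group was flagged because A119 had no *Cd3e* count, a gap of 0.839 of the range. That ratio was set by *Cd3e* counts of 0 to 6.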

How the results depend on the processing

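The members' direction and side of the threshold held in 55 of 60 checks under other settings and in 74 of 88 fits that left out 1 library. The threshold of 0.05 reused the main fit, so it could not change a direction. In A10i against DMSO the edgeR fits with 1 library left out called 0 to 1 genes in all. Members staying uncalled there is therefore no sign of stability. *Cxcl16* in DMSO against sham passed with DESeq2 (0.82), with no filter (0.82) and at a threshold of 0.05 (0.82), and *Cx3cr1* in A10i against sham with DESeq2 (1.30) and at 0.05 (1.31). With 1 library left out, *Cx3cl1* ranged from -0.12 to 0.20 in A10i against DMSO, changing sign without A129 (0.20), A117 (0.091) or A120 (0.071), and from 0.83 to 1.14 in DMSO against sham. *Cxcl16* ranged from 0.67 to 0.91 in DMSO against sham, and *Cx3cr1* from 0.91 to 1.45 in A10i against sham and from -0.081 to 0.29 in DMSO against sham, negative without S2 (-0.081), A127 (-0.058) or A129 (-0.067). The *Cx3cl1* to *Cdh5* difference ranged from -0.17 to 0.037, positive without A129 (0.037). The other ratios kept their sign. With fewer libraries the smallest exact p was 0.0571.

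The number of genes called in A10i against DMSO was 0 with edgeR, 231 with DESeq2, 43 without a filter, 11 in the joint fit and 12 at 0.05, and 0 to 1 with 1 library left out (1 without A105 or A127). In DMSO against sham it was 3857, 6832 at 0.05 and 1522 to 4051 with 1 library left out. In A10i against sham it was 3885, 6672 at 0.05 and 1620 to 4365. The lowest counts were those without a sham library (1522 to 1542 and 1620 to 1714), where 2 remained. Of the 5 genes most like each member, 0 to 1 were shared with a ranking by Spearman's rho and 0 to 3 with one over all 11 libraries. The causes of these changes were not tested.

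No paired analysis was possible because the mice carry individual names and share no replicate number across groups. Low counts limit *Cxcr6* in sham hearts and the T cell markers.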
